A study of Homo sapiens with 10 samples.

Results

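KYSE180 and KYSE30 are established lines of human esophageal squamous cell carcinoma, a cancer of the stratified lining of the esophagus, and their gene expression was compared in 8 of the 10 libraries of the study. Each line gave 4 RNA-seq libraries, 1 for each of 4 conditions. The untreated library and the library of cells given interferon-beta (IFN-β, an antiviral cytokine) at 1000 IU/ml for 72 h form the interferon experiment. The vector control library and the library of cells infected with lentivirus that knocks down IRF1-AS, a non-coding transcript antisense to the IRF1 gene, form the knockdown experiment. KYSE180 was set against KYSE30 within each condition, which gave 4 pairs. A gene belongs to the stable difference between the lines where all 4 pairs had 1 direction, and 6005 of 10788 genes tested met that rule. KYSE450, another line with an untreated and an IFN-β library in the interferon experiment only, is given beside them. Cells of all 3 lines were grown in the same serum-containing medium and used at passages 5 to 10, with buffer alone as the IFN-β control and lentivirus made in HEK293T cells, per the labels. No untransformed esophageal cells stand beside them. Each line and condition is 1 library and nothing in the labels says which cultures were separate. The p-values therefore measure the spread of the line difference over these 4 conditions.

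Stratified squamous epithelium renews from a basal layer that makes keratins 5 and 14 and is held to the basement membrane by integrins and laminins. Cells that leave this layer switch to other keratins, such as 4 and 13 in the esophagus, and build a cornified envelope with its own protease inhibitors. The transcription factor NRF2 (NFE2L2) is held low by KEAP1 and switches on detoxifying and glutathione enzymes through antioxidant response elements, and it is often mutated in cancers of this tissue. Levels below are FPKM, a value normalized for transcript length and library size, always in the order untreated, IFN-β, vector control and knockdown. Differences are KYSE180 minus KYSE30 in log2(FPKM + 1), as the mean of 4 pairs with its standard error (SE), and understate the change of genes near 0 FPKM. A stable call means a Benjamini-Hochberg adjusted p of at most 0.05 over all genes tested in limma, and 1 direction in all 4 pairs.

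By this rule 4310 genes were called, 40.0% of those tested, of which 2653 (24.6%) were higher and 1657 (15.4%) lower in KYSE180. These shares are the background for the counts of each gene list below. After median-of-ratios scaling the split was 2078 higher (19.3%) and 2194 lower (20.4%), since that scaling moved the median over all genes from 0.12 to −0.02. Small differences therefore take their direction from the scaling, and the weight below is on large ones. A difference of 2 log2 units or more was called in 375 genes higher (3.48%) and 269 genes lower (2.49%) in KYSE180. The FPKM of named genes summed to between 988867 and 991660 in the interferon libraries of both lines and to between 399081 and 425340 in the knockdown libraries. The experiments were normalized apart, so levels are set against each other only within one. The count of genes at 1 FPKM or more ran from 11086 to 11886 over the 8 libraries, and the depth in reads is unknown.

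The genes at the top of the KYSE180 side were of several kinds, among them protease inhibitors of the epidermis and enzymes that reduce aldehydes and ketones. PI3, which encodes the elastase inhibitor elafin of differentiated keratinocytes (chr20:45174876-45176544, GRCh38), was listed at 2838, 1593, 3531 and 932 FPKM in KYSE180. In KYSE30 it was listed at 0.36, 1.99, 0.484 and 0.769 FPKM. No KYSE180 library was below 932 FPKM and no KYSE30 library reached 2, a difference of 10.09 ± 0.41 (adjusted p = 1.07e-05). CSTA, a cystatin of the cornified envelope, stood at 738, 607, 707 and 202 FPKM in KYSE180 and at 0.5, 0.84, 2 and 0.783 in KYSE30, a difference of 8.01 ± 0.31 (adjusted p = 6.82e-06). CYBA, the p22phox subunit of superoxide-producing NADPH oxidases, was at 218, 275, 332 and 331 FPKM against 0.29, 0.29, 1.09 and 0.923, with the groups far apart. UCHL1, a ubiquitin hydrolase best known from neurons, was at 352, 395, 176 and 217 FPKM in KYSE180 and at 0.3, 0.11, 0.294 and 0.404 in KYSE30. Both groups were tight for UCHL1 (7.73 ± 0.25, adjusted p = 3.43e-06).

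On the KYSE30 side the leading genes were of mixed kinds. ARHGDIB, usually named from blood cells, was at 187, 181, 71.9 and 99.4 FPKM in KYSE30 against 0.63, 0.28, 0.732 and 0.438 in KYSE180 (−6.38 ± 0.29, adjusted p = 1.24e-05). PEG10, an imprinted gene derived from a retrotransposon, was at 133, 149, 46.3 and 39.9 FPKM in KYSE30 against 0.22, 0.21, 0.147 and 0.235 in KYSE180. Its neighbour SGCE, which shares the imprinted region on chromosome 7, was lower too (−3.13 ± 0.18, adjusted p = 2.96e-05). TNFSF18, the ligand GITRL of the tumor necrosis factor family, stood at 94.8, 155, 83.2 and 37.5 FPKM in KYSE30, while its largest value in KYSE180 was 1.36. PADI3, a peptidylarginine deiminase of hair follicle and epidermis, was at 279, 190.1, 168 and 199.8 FPKM in KYSE30 against 3.99, 2.93, 1.45 and 1.27 in KYSE180. AGR2, a secretory disulfide isomerase of mucous epithelium, was at 741, 854, 165 and 88.1 FPKM against 18.8, 11.4, 0.854 and 3.37. For every gene named so far the values of the lines did not overlap in either experiment. These genes were named for their large differences, so this follows largely from the choice.

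**Figure D1:**
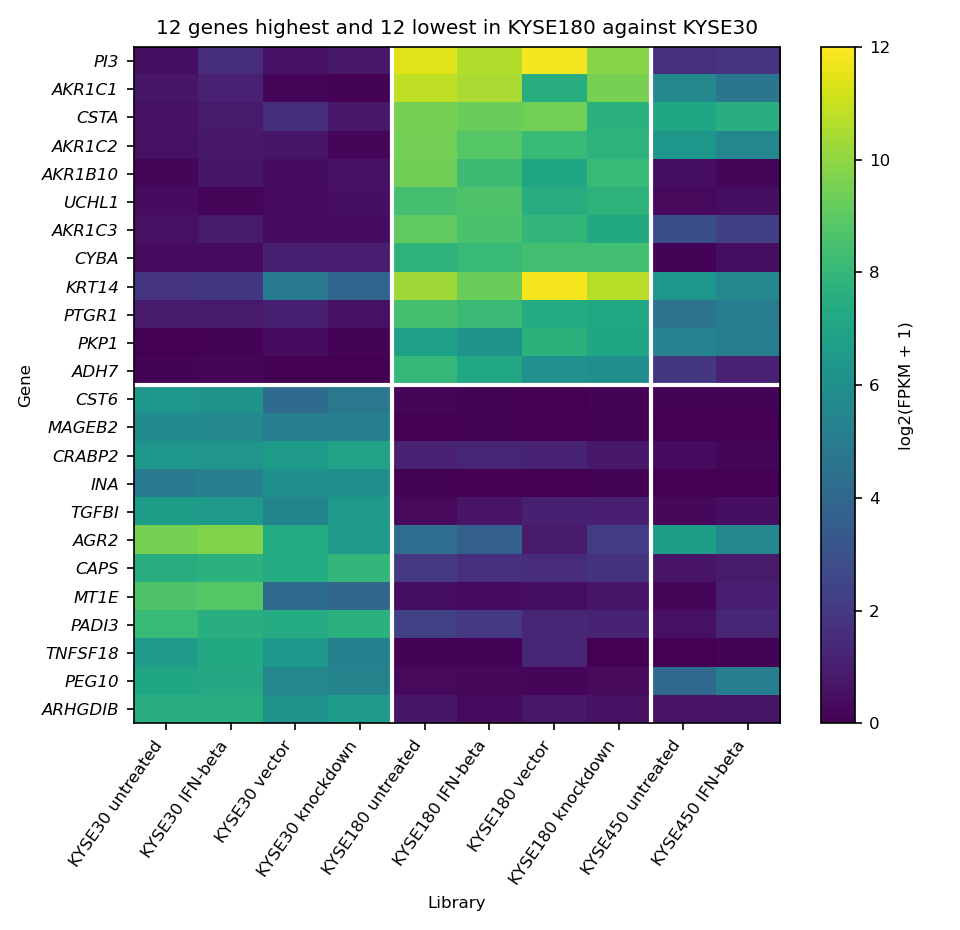
Heat map of log2(FPKM + 1) for the 12 called genes with the largest positive and the 12 with the largest negative difference (rows, mean of 5 FPKM or more) in each library (columns, grouped by line). PI3 to ADH7 are bright in all 4 KYSE180 libraries and CST6 to ARHGDIB in all 4 KYSE30 libraries. KYSE450 is bright for some of the upper genes, and below the line for AGR2 and PEG10.

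Stratified and simple epithelial keratins went opposite ways. All 4 basal keratin genes tested were called higher in KYSE180, with a median difference of 5.85 against 0.12 over all genes. KRT14 was at 1258, 627, 3616 and 1683 FPKM in KYSE180 and at 2.61, 2.83, 29.7 and 13.6 in KYSE30 (7.38 ± 0.27, adjusted p = 5.69e-06). KRT15 was at 257, 116, 37 and 108 FPKM against 29.1, 24.9, 4.64 and 9.09. Of 10 suprabasal and wound keratins tested, 7 were higher and 1, KRT80, was lower. KRT4, the esophageal keratin of the upper layers, was at 389, 117, 65.7 and 41.9 FPKM in KYSE180 and at 2.11, 2.24, 0.809 and 0.359 in KYSE30 (5.59 ± 0.33, adjusted p = 3.17e-05). Its partner KRT13 was at 2175, 1091, 2153 and 2119 FPKM against 82.3, 82.7, 18.9 and 46.8 (5.16 ± 0.43, adjusted p = 0.000174). KRT1, a keratin of the upper epidermis, was listed at 0 in 3 KYSE30 libraries and at 15.6, 1.84, 24.5 and 44.5 FPKM in KYSE180. Its call was lost with the interferon experiment alone (adjusted p = 0.0686 in limma).

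The simple epithelial keratins went the other way, with 4 of 4 tested called lower in KYSE180 and a median of −1.62. KRT18 was at 1057, 866, 864 and 891 FPKM in KYSE30 against 255, 335, 138 and 197 in KYSE180 (−2.06 ± 0.21, adjusted p = 0.000323). KRT8, with which it forms filaments, was at 1083, 952, 889.8 and 1481 FPKM against 385, 604, 330.3 and 649 (−1.19 ± 0.17, adjusted p = 0.0016). KRT19 was the closest of them, at 1713, 1584, 1051 and 1239 FPKM in KYSE30 and 771, 640.0, 923 and 567 in KYSE180. Its call was lost with the knockdown experiment alone (adjusted p = 0.164 in limma). KYSE450 had KRT19 at 0.72 and 2.61 FPKM in its untreated and IFN-β libraries, below every library of both lines.

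Among the keratins, the line difference of some genes depended on the experiment. The tables of the experiments were normalized apart, and each difference is taken within one. KRT5 was listed at 2.91, 1.37, 117 and 228 FPKM in KYSE30, low in both interferon libraries and over 100 in both knockdown libraries, while KYSE180 held 2346, 1199, 3038 and 3285 FPKM. The line difference of KRT5 was 9.11 in the interferon experiment and 4.26 in the knockdown experiment, and the difference between these had an adjusted p of 0.0054 in limma. KRT6A (7.50 and 3.19, adjusted p of the term = 0.023) showed the same split. KRT17 was at 3.07, 3.15, 214 and 59.4 FPKM in KYSE30 and 481, 462, 644 and 1661 in KYSE180, with an adjusted p of 0.0933 for that term. For KRT14 the differences were 7.90 and 6.87 (adjusted p of the term = 0.171). When the 2 pairs of an experiment were averaged, which leaves 2 values a gene, KRT5, KRT17 and KRT6A lost their calls (adjusted p = 0.382, 0.384 and 0.409). KRT17 also lost it without the untreated pair (adjusted p = 0.0648) or the IFN-β pair (0.0501), and KRT6A without the untreated pair (0.0513). KRT genes of one type are similar in sequence, and reads shared between KRT6A, KRT6B and KRT6C or between KRT14, KRT16 and KRT17 could be split in ways the files do not show.

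**Figure D2:**
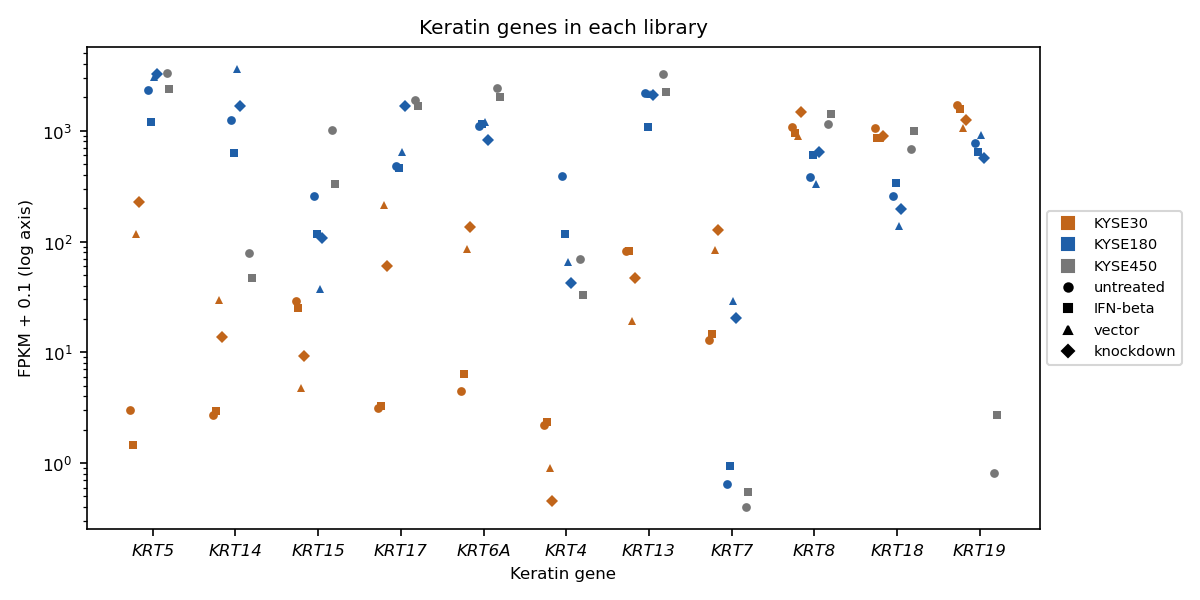
FPKM + 0.1 on a log axis of 11 keratin genes in each library, with the line as colour and the condition as symbol. KYSE180 lies above KYSE30 for KRT5 to KRT13 and below it for KRT7 to KRT19. The KYSE30 values of KRT5, KRT17 and KRT6A lie in separate pairs, at 1.37 to 6.33 in the interferon experiment and 59.4 to 228 in the knockdown experiment. The experiments were normalized apart, so these ranges are not a measured change of level.

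Most differentiation genes of the list that had a stable call followed the suprabasal keratins. PADI3 of epidermis and the skin cystatin gene CST6, outside the list's count, were higher in KYSE30. Of 30 cornified envelope genes tested, 17 were called higher and 1 (SCEL) lower in KYSE180, with a median of 1.72. KRTDAP, a keratinocyte differentiation peptide, was listed at 0 in 3 KYSE30 libraries and at 191, 59.5, 31.9 and 10.6 FPKM in KYSE180. KLK10, a secreted kallikrein protease, was at 17.5, 16.4, 236 and 113 FPKM in KYSE180 and at or under 0.351 in KYSE30. Its difference was larger in the knockdown experiment (7.05) than in the interferon experiment (4.05, adjusted p of the term = 0.0241). The cross-bridging enzyme TGM1 was higher (3.13), whereas the envelope scaffold genes IVL (−0.74), EVPL (−0.11) and PPL (−0.51) had no stable call. S100A8 and S100A9, the subunits of calprotectin, were at 65.4, 22.1, 54.2 and 14.1 and at 321, 156, 83.1 and 14.9 FPKM in KYSE180. In KYSE30 they were at 0.55, 0.26, 2.17 and 0.833 and at 6.57, 6.25, 6.49 and 1.38 FPKM. The S100 genes did not go this way as a group. Of 15 tested, 4 were higher, 2 lower and 9 not called, with a median of 0.04, beside 24.6% higher and 15.4% lower over all genes.

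Of 17 cadherin and desmosome genes tested, 8 were higher, 3 lower and 6 not called in KYSE180. PKP1, a desmosomal plaque protein of stratified epithelium, was at 112, 73.5, 211 and 138 FPKM in KYSE180 and at 0.01, 0.1, 0.311 and 0.0916 in KYSE30 (6.80 ± 0.22, adjusted p = 3.43e-06). Its relative PKP2, common in simple epithelia, was lower (−1.71). The desmosomal cadherins DSG3 (2.33 ± 0.26) and DSC3 (2.55 ± 0.23) were higher, and E-cadherin (CDH1, 0.24) had no stable call. Of 28 integrin, laminin and basement membrane genes tested, 16 were lower and 3 higher, with a median of −0.74. LAMB1, a laminin chain, was at 42.5, 38.3, 39.8 and 29.1 FPKM in KYSE30 against 3.84, 3.57, 2.32 and 3.92 in KYSE180. ITGA2, a collagen receptor chain, was at 66.4, 81, 80.3 and 73.4 FPKM against 31.3, 18, 5.64 and 6.39. The hemidesmosome genes ITGB4 (−2.29), ITGA6 (−0.82), PLEC (−1.97) and COL17A1 (−1.37) were all called lower.

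Of 21 tight junction genes tested, 5 were higher and 7 lower, beside 24.6% higher and 15.4% lower over all genes. CLDN1, the barrier claudin of squamous epithelium, was at 59.4, 49.6, 51.3 and 20.2 FPKM in KYSE30 against 0.51, 0.47, 1.05 and 0.49 in KYSE180 (−4.73 ± 0.26, adjusted p = 2.49e-05). The gap junction gene GJB6 was at 106, 37.1, 59.1 and 37.8 FPKM in KYSE180 and at 3.13, 2.44, 0.673 and 0.716 in KYSE30. Of 16 mesenchymal genes tested, 5 were higher and 4 lower, beside the same shares over all genes. MSN, a linker of membrane and actin, was at 131, 76.9, 90 and 82.9 FPKM in KYSE180 and at 0.2, 0.19, 0.382 and 0.289 in KYSE30 (6.22 ± 0.19, adjusted p = 3.43e-06). Fibronectin (FN1) was at 30.3, 22.2, 9.56 and 2.53 FPKM in KYSE30 against 0.15, 0.14, 0.155 and 0.325 in KYSE180, and TGFBI, a matrix protein, at 106, 85.5, 42.1 and 88 against 0.22, 0.53, 1.06 and 0.995. Vimentin (VIM) stayed under 7 FPKM in all 8 libraries with no stable call. ZEB1 and ZEB2, repressors of epithelial genes, did not exceed 0.1 FPKM.

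Of 29 squamous lineage factors 27 were tested, and 13 were called higher and 5 lower in KYSE180. TP63, the master factor of stratified epithelium, was at 126, 91.7, 39.6 and 28.7 FPKM in KYSE180 and at 26.1, 28.4, 33.6 and 21.3 in KYSE30. Its difference was 1.94 in the interferon experiment and 0.32 in the knockdown experiment (adjusted p of the term = 0.0506 in limma). Its call was lost without the untreated pair (adjusted p = 0.0894) or the IFN-β pair (0.127). It was also lost without a filter (adjusted p = 0.0815) and with the knockdown experiment alone (0.264). KLF5, a factor of proliferating squamous cells, was at 149.7, 154, 162 and 142 FPKM against 21.3, 26.3, 25.5 and 22.6, one of the steadiest differences (2.62 ± 0.13, adjusted p = 1.6e-05). SOX2, on 3q26, was at 205, 355, 181 and 237 FPKM in KYSE180 and at 61.4, 83.5, 108 and 89.4 in KYSE30 (1.48 ± 0.22, adjusted p = 0.00173). Foregut factor FOXE1 was at 34.5, 39.8, 52.8 and 48.7 FPKM in KYSE180 and at 4.83, 5.08, 4.54 and 2.92 in KYSE30. OVOL1 (−1.50), ELF3 (−1.06), BNC1 (−0.89), KLF4 (−0.80) and GRHL2 (−0.78) were lower.

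Most markers of leukocytes, fibroblasts and endothelium, glandular epithelium, and melanocytes and neural cells stayed under 1 FPKM in all 8 libraries. Among melanocyte and neural markers 9 of 15 did, and the highest value was 90.3 FPKM. Among HEK293T markers only 4 of 10 did, and the highest value was 50 FPKM. Of 15 leukocyte markers, 14 stayed under the filter, and CD68, which epithelial lines also express, was the 1 tested. The summed leukocyte list ran from 2.14 to 3.15 FPKM in KYSE30 and from 9.85 to 16.9 in KYSE180, with CD68 the main part. PTPRC, the common leukocyte antigen, did not exceed 0.09 FPKM. Glandular markers were low, although CDX2, an intestinal factor, was at 4.26, 4.66, 5.44 and 5.34 FPKM in KYSE180 and FOXA2, a foregut endoderm factor, at 1.63, 1.65, 5.72 and 10.3 in KYSE30 and at 0 in all 4 KYSE180 libraries. Of 4 melanocyte and neural markers tested, TUBB3 (−2.82 ± 0.40) and NEFH (−2.68 ± 0.23) were lower in KYSE180, while SOX10 and MLANA stayed under 0.5 FPKM. TUBB3 lost its call with the knockdown experiment alone (adjusted p = 0.0673 in limma). Of 4 HEK293T markers tested, LIN28B (−1.17 ± 0.18) and IGF2BP1 (−1.24 ± 0.19) were lower, in the interferon pairs as in the lentiviral ones.

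Detoxifying enzymes were higher in KYSE180 as a group. Of 37 genes tested from a list of NRF2 targets and detoxification, 24 were called higher and 2 lower in KYSE180, with a median of 0.97 (22 higher after scaling). Their summed level was 15660, 12500, 8449 and 8944 FPKM in KYSE180 and 5316, 5071, 5282 and 4365 in KYSE30. The largest differences were in the aldo-keto reductases. AKR1C1, which reduces ketosteroids (chr10:4963253-4983283, GRCh38), was at 1867, 1414, 177 and 741 FPKM in KYSE180 and at 0.66, 1.16, 0.164 and 0.0655 in KYSE30 (9.05 ± 0.42, adjusted p = 1.6e-05). AKR1C2 was at 716, 461, 273 and 218 FPKM and AKR1C3 at 531, 370.4, 247 and 154 in KYSE180, and neither reached 1 FPKM in KYSE30. AKR1B10, from another chromosome, was at 670.2, 297, 137 and 282 FPKM in KYSE180 and at 0.16, 0.68, 0.302 and 0.487 in KYSE30. The AKR1C genes are near copies, so the split of reads among them is uncertain.

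Other genes of the list moved by less. GPX2, a glutathione peroxidase of epithelia, was higher by 5.33, the glutathione synthesis subunit GCLC by 3.13, the cystine carrier SLC7A11 by 2.17 and PGD of the pentose phosphate pathway by 1.69. NQO1, a quinone reductase and classical target, was at 332.3, 305.5, 129.8 and 165.6 FPKM in KYSE180 and at 126.0, 126.2, 63.5 and 42.8 in KYSE30 (difference 1.40 ± 0.17). NFE2L2 itself, the gene of NRF2, was at 45.9, 34.4, 32.5 and 28.2 FPKM in KYSE180 and at 28.4, 28.6, 35.7 and 34.0 in KYSE30 (0.13 ± 0.19, adjusted p = 0.593). Within the interferon experiment the NFE2L2 values of KYSE180 lay above those of KYSE30, and within the knockdown experiment they lay below. The direction of NFE2L2 was therefore not stable. KEAP1, its inhibitor, was higher in KYSE180 (1.37 ± 0.14, adjusted p = 0.000322). TRIM16 (−0.87) and TRIM16L (−0.81) were the members called lower, and SPP1 (−3.46) had no stable call.

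Promoters of this group were read from RefSeq (GRCh38.p14), as the 250 bases before each gene's start. Shown are 3 called members whose window holds a core of the antioxidant response element, TGACNNNGC on either strand, in capitals, and AKR1C1, whose window holds none. The windows are chr14:64942746-64942995 (minus strand) for GPX2, chr1:10398814-10399063 (plus strand) for PGD, chr12:104215529-104215778 (plus strand) for TXNRD1 and chr10:4963165-4963414 (plus strand) for AKR1C1.
GPX2: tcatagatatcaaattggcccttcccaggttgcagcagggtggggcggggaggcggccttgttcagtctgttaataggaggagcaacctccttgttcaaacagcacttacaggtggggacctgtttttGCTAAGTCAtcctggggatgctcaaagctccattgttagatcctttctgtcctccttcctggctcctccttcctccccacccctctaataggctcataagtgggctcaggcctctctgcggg
PGD: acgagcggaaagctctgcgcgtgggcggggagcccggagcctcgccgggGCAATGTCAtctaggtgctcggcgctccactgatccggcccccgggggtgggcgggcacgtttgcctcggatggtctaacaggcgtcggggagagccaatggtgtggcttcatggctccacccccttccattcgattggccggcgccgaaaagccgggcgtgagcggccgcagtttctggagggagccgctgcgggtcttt
TXNRD1: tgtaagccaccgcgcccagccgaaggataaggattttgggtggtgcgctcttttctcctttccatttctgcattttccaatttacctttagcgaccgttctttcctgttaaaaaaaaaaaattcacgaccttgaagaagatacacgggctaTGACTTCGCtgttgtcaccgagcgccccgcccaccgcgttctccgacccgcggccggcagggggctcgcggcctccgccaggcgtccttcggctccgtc
AKR1C1: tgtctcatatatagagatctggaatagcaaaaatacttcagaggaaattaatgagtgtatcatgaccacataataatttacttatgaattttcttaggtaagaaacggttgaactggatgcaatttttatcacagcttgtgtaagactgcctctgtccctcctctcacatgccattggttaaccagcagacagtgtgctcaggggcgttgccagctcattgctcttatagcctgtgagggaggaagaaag
In GPX2 the core reads TGACTTAGC on the opposite strand, from 122 to 114 bases before the start. The core was found in 5 of the 18 called-higher members with a matched promoter (27.8%), namely CBR1, GPX2, ME1, PGD and TXNRD1. It was found in 1 of 8 other tested members (12.5%) and in 11.6% of the 13958 matched promoters of all genes. The AKR1C2 window shares a run of 245 bases with that of AKR1C1. These are matches of letters and not measured binding. The RefSeq starts differ from the GENCODE starts: of the promoters printed here and further on, the TXNRD1 window alone lies wholly before its GENCODE gene, and the others overlap it by 160 to 250 bases. The AKR1C1 window overlaps its gene by 162 bases, so the lack of a match there speaks of this window only.

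Glutathione and aldehyde enzymes beyond that list were divided, with 15 higher and 7 lower of 27 tested. ADH7, the retinol-oxidizing alcohol dehydrogenase of upper digestive epithelium, was at 253, 147, 67 and 57.2 FPKM in KYSE180 and at 0.1, 0.15, 0.0185 and 0 in KYSE30 (6.70 ± 0.33, adjusted p = 1.6e-05). ALDH3A1, the stratified epithelial aldehyde dehydrogenase, was at 1861, 653, 847 and 1152 FPKM against 5.7, 7.45, 24.6 and 18.4. ALDH1A1 was at 122, 112, 58.3 and 34.3 FPKM in KYSE180 and at 0.04, 0.04, 0.245 and 0.374 in KYSE30, whereas its relative ALDH1A3 was lower (−3.07). GSTA1, a glutathione transferase, was at 217, 119, 60.8 and 44.4 FPKM in KYSE180 and did not exceed 0.07 in KYSE30. MGST1 (−2.38) and ALDH3B1 (−2.59) were higher in KYSE30. MT1E, a metallothionein that binds zinc, was at 416, 462, 17.3 and 14.3 FPKM in KYSE30 against 0.34, 0.27, 0.375 and 0.637 in KYSE180. Its line difference was smaller in the knockdown experiment (adjusted p of the term = 0.00333 in limma). Its call was lost with averaged pairs (adjusted p = 0.415) and without the untreated pair (0.0568).

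**Figure D3:**
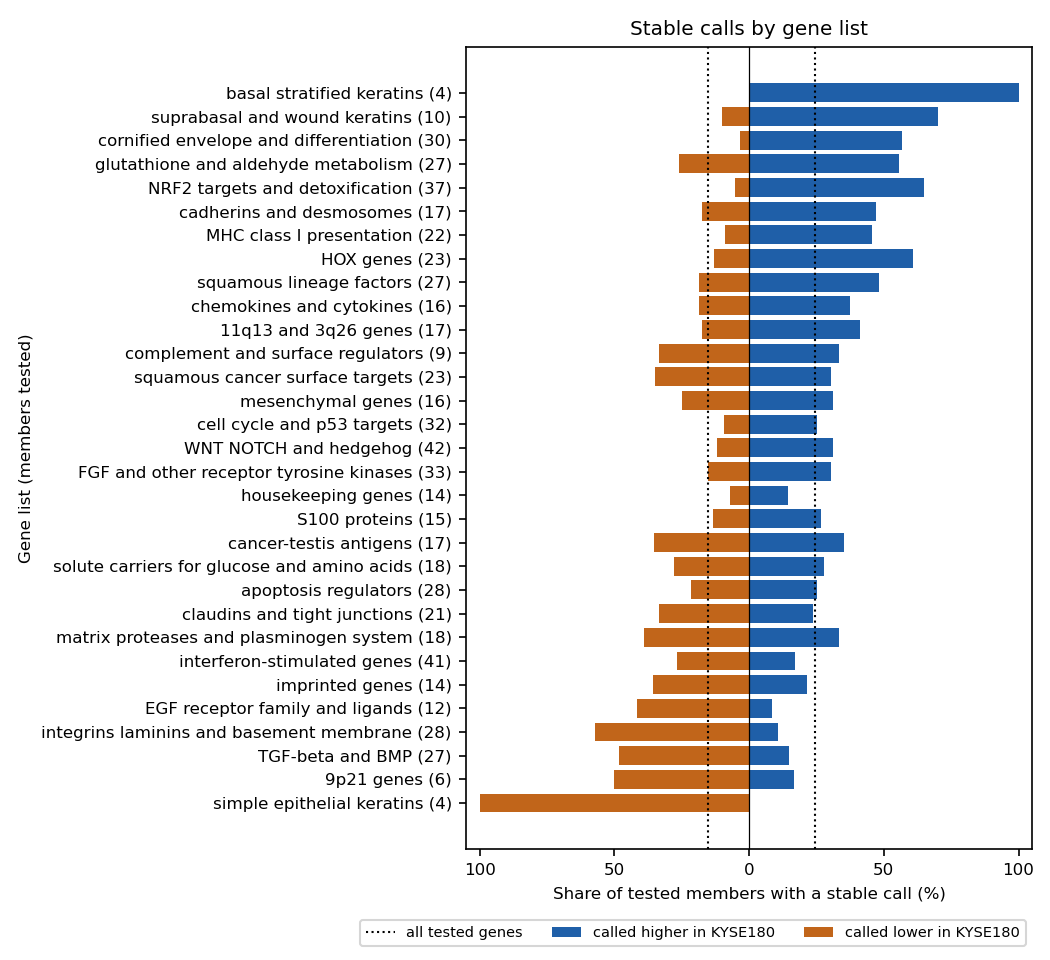
Share of the tested members of 31 gene lists called higher (right) or lower (left) in KYSE180, in order of the lists' median difference, with the number tested in brackets. Dotted lines mark the shares over all genes, 24.6% higher and 15.4% lower. Keratin, envelope and detoxification lists lie at the top, and TGF-beta, matrix and simple keratin lists at the bottom.

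Of 12 EGF receptor family members and ligands tested, 5 were lower, 1 (the ligand NRG1) higher and 6 not called in KYSE180. EREG (epiregulin) was at 27.8, 57.7, 39.4 and 34.8 FPKM in KYSE30 against 0.05, 0.05, 0.0701 and 0 in KYSE180 (−5.25 ± 0.21, adjusted p = 6.82e-06). AREG (amphiregulin) was at 128, 194, 581 and 339 FPKM in KYSE30 against 5.77, 8.17, 27.4 and 11.3 in KYSE180 (−4.45 ± 0.15, adjusted p = 3.43e-06). EPGN (epigen), another ligand of this cluster on chromosome 4, was at 29.7, 28.8, 4.93 and 6.53 FPKM against 0.62, 0.47, 0.193 and 0.218. The receptor EGFR was at 166.6, 172.2, 224.9 and 238.0 FPKM in KYSE30 against 97.1, 56.2, 80.2 and 66.8 in KYSE180 (−1.42 ± 0.19, adjusted p = 0.00114). ERRFI1, a feedback inhibitor of the receptor, was lower too (−2.73 ± 0.26), and DUSP4, a phosphatase of the MAP kinases downstream, was at 20.6, 25.8, 56.9 and 71.3 FPKM in KYSE30 and under 0.5 in KYSE180.

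Of 33 genes of FGF and other receptor tyrosine kinases tested, 10 were higher in KYSE180, 5 lower and 18 not called, near the 24.6% and 15.4% over all genes. FGFR2 was at 104, 95.8, 86.8 and 101 FPKM in KYSE180 and at 5.75, 4.85, 7.74 and 5.92 in KYSE30 (3.80 ± 0.17, adjusted p = 1.17e-05). NTRK2, the receptor of the neurotrophin BDNF, was at 17.8, 10.1, 39.6 and 29.1 FPKM in KYSE180 and did not exceed 0.08 in KYSE30. Among WNT, NOTCH and hedgehog genes, 13 were higher and 5 lower of 42 tested, near the shares over all genes. WNT5A, a ligand of the non-canonical branch, was at 37.3, 19.6, 20.8 and 23.2 FPKM in KYSE180 and did not exceed 0.04 in KYSE30, and ROR1, a receptor for it, was lower in KYSE180 (−2.51 ± 0.35). NOTCH3 was at 23.4, 14.6, 64 and 75.7 FPKM against 2.4, 2.19, 14.9 and 10.9.

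Of 27 TGF-beta and BMP genes tested, 13 were lower and 4 higher in KYSE180 and 10 had no stable call, with a median of −0.74, beside 15.4% lower over all genes. ID4, an inhibitor of helix-loop-helix factors, was at 18.6, 24.1, 26.6 and 23 FPKM in KYSE30 against 0.04, 0.02, 0.0662 and 0.153 in KYSE180 (−4.48 ± 0.17, adjusted p = 6.82e-06). The ligand BMP4 was at 12.9, 14.3, 9.41 and 6.92 FPKM against 0.63, 0.97, 0.667 and 0.956. Receptors TGFBR1 (−1.54), TGFBR2 (−0.97) and TGFBR3 (−3.15 ± 0.29) and the targets ID1 (−0.58), ID2 (−0.77), ID3 (−1.59) and SMAD7 (−0.74) were all called lower, and the ligand BMP7 higher (2.13). HOX genes, which mark position along the body axis, were called higher in 14 and lower in 3 of 23 tested. HOXD11 was at 13.2, 13.7, 10.5 and 12.7 FPKM in KYSE180 and at 0, 0, 1.28 and 0.518 in KYSE30.

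Cancer-testis genes, normally confined to the germ line and expressed in some tumors, were divided between the lines. Of 17 tested, 6 were higher and 6 lower in KYSE180, beside 24.6% higher and 15.4% lower over all genes. MAGEA1 was at 32.8, 40.3, 40.3 and 37.3 FPKM in KYSE180 and listed at 0 in 3 KYSE30 libraries (5.25 ± 0.16, adjusted p = 3.43e-06). PRAME, an antigen of melanoma and other tumors, was at 41, 66, 27.1 and 32.9 FPKM in KYSE180 and at 0, 0.02, 0.0668 and 0.156 in KYSE30. MAGEB2 was at 51.8, 50, 33.7 and 35.2 FPKM in KYSE30 against 0, 0.07, 0.0286 and 0.0339 in KYSE180 (−5.38 ± 0.19, adjusted p = 4.36e-06). Genes of the MAGEA family are near copies, and their counts could share reads.

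Interferon-stimulated genes did not differ between the lines in a single way. Of 41 tested, 7 were higher and 11 lower in KYSE180, with a median of −0.25, beside 24.6% higher and 15.4% lower over all genes. ISG15, an antiviral ubiquitin-like protein, was at 45.5, 1686, 1073 and 346 FPKM in KYSE30 against 14.2, 809, 32.6 and 23.7 in KYSE180. Within the knockdown experiment the KYSE30 vector control library held the most ISG15, and the line difference was −1.33 in the interferon experiment and −4.40 in the knockdown experiment (adjusted p of the term = 0.035). Within the knockdown experiment IFIT2 was likewise highest in that vector library. IFIT2 was at 10.5, 48.1, 179 and 65 FPKM in KYSE30 and 1.66, 30.1, 2.01 and 1.19 in KYSE180. MX1, a dynamin-like antiviral GTPase, was at 8.79, 320.1, 17.6 and 6.65 FPKM in KYSE180 and at 0.36, 1.62, 0.265 and 0.119 in KYSE30, where IFN-β left it under 2 FPKM. BST2 (tetherin) was at 88.7, 541, 102 and 72.5 FPKM against 0.82, 247, 15.2 and 6.33. Without the pair as a block, IFIT2, BST2 and ISG15 lost their calls (adjusted p = 0.0609, 0.15 and 0.229). IFIT2 also lost it without the untreated, vector or knockdown pair (adjusted p = 0.0976, 0.0656 and 0.062). With the interferon experiment alone, MX1 and BST2 lost their calls (adjusted p = 0.138 and 0.321 in limma). MHC class I genes were called higher in 10 (8 after scaling) and lower in 2 (4 after scaling) of 22, with a median of 1.11 in the interferon and 0.13 in the knockdown experiment. Among those called higher were the proteasome activators PSME1 (1.91 ± 0.18) and PSME2 (1.64 ± 0.13). TAP1 and PSMB8 are listed at 0 in all 4 knockdown libraries, as 21 tested genes are, so they are described only as listed at 0. Any list member so listed has a knockdown difference of 0 and cannot get a stable call. The list medians of the experiments are therefore not like for like.

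Some genes were on in one line and off in the other by level alone. At 5 FPKM or more in all 4 libraries of a line and under 0.5 in all 4 of the other, 71 of 17372 genes (0.409%) were restricted to KYSE180 and 32 (0.184%) to KYSE30. At 10 FPKM against 0.5 the counts were 42 and 15, and at 5 against 0.1 they were 26 and 16. PRSS21, a membrane serine protease of testis, was at 66.2, 75.4, 61.5 and 100.1 FPKM in KYSE180 and did not exceed 0.04 in KYSE30. INA, a neuronal intermediate filament, was at 29.6, 36.7, 64.1 and 62.6 FPKM in KYSE30 and did not exceed 0.06 in KYSE180. CALB2 (calretinin), a calcium buffer, was at 58, 49.1, 16.9 and 12.4 FPKM in KYSE30 and under 0.5 in KYSE180. CST6, a cystatin of skin, was at 77.6, 72.2, 17.2 and 26.8 FPKM in KYSE30 against 0.13, 0.05, 0 and 0.0699 in KYSE180. At the edge of the rule, CRAT was inside with a KYSE30 maximum of 0.483 FPKM and C1R outside with 0.501. On the KYSE30 side, VGLL1 was inside with a KYSE180 maximum of 0.48 FPKM and CDKN2A outside with 0.511.

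The promoters of restricted genes differed in CpG content between the lines, as a description. At least 10 CpG in the 250 bases before the start were found in 29 of 58 matched KYSE180-restricted promoters (50%), 17 of 23 KYSE30-restricted ones (73.9%), 69.8% of all matched promoters and 86.7% of those of tested genes. The AP-1 motif TGACTCA, on either strand, was in 4 of 58 (6.9%), 1 of 23 (4.35%) and 3.14% of all. Shown are 3 KYSE180-restricted promoters of surface epithelium genes with the motif in capitals, at chr4:99435343-99435592 (minus strand) for ADH7, chr19:35490465-35490714 (minus strand) for KRTDAP and chr18:63587093-63587342 (plus strand) for SERPINB13. SERPINB13, a protease inhibitor of squamous epithelium, was at 107.9, 61.8, 44.2 and 17.2 FPKM in KYSE180 and did not exceed 0.241 in KYSE30.
ADH7: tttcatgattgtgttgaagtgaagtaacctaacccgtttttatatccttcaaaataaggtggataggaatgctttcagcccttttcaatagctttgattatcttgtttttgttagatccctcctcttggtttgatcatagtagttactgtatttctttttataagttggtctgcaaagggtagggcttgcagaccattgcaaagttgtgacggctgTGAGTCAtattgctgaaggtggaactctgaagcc
KRTDAP: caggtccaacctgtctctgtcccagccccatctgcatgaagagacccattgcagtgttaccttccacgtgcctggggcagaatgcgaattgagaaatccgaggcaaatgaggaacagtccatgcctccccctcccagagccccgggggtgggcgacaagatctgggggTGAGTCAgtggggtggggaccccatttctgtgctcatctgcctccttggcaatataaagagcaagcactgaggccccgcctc
SERPINB13: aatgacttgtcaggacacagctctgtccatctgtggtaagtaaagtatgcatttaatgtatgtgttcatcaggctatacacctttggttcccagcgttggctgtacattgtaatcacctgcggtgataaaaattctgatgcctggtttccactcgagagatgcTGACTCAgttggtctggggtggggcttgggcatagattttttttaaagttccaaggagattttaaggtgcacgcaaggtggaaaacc
The ADH7 window holds 2 CpG, that of KRTDAP 6 and that of SERPINB13 4. The median over all matched promoters was 18.

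Differences were unevenly spread along the genome. On chromosome 14, 170 of 345 tested genes were higher and 11 lower, with a median of 0.53, and on chromosome 8, 30 of 366 were higher and 142 lower, with a median of −0.37. Among 383 windows of 5 Mb with at least 10 tested genes, the highest median was 1.60, at chr14:20000001-25000000 (GRCh38), where 63 of 70 genes were higher and none lower. Its genes have unrelated roles, such as the methyltransferase genes METTL3 (1.44) and PRMT5 (1.81), the telomere protein gene TINF2 (2.17), the proteasome genes PSMB5 (1.69), PSME1 and PSME2, and the interferon signalling gene IRF9 (1.80). The lowest median was −1.39, at chr17:15000001-20000000, where 39 of 48 genes were lower and 2 higher. NCOR1 (−2.43), a corepressor, MPRIP (−3.49), FLCN (−1.52), a folliculin tumor suppressor, and TRIM16 and TRIM16L lie there, and the exceptions were ALDH3A1 (6.33) and SLC47A1 (1.81). At chr7:55000001-60000000, which holds EGFR, 6 of 10 genes were lower and none higher (median −1.20). The median of each of these windows kept its sign in all 4 pairs, which their choice by the mean over the same pairs makes likely. DNA copy number was not measured, and its part in these differences was not tested.

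**Figure D4:**
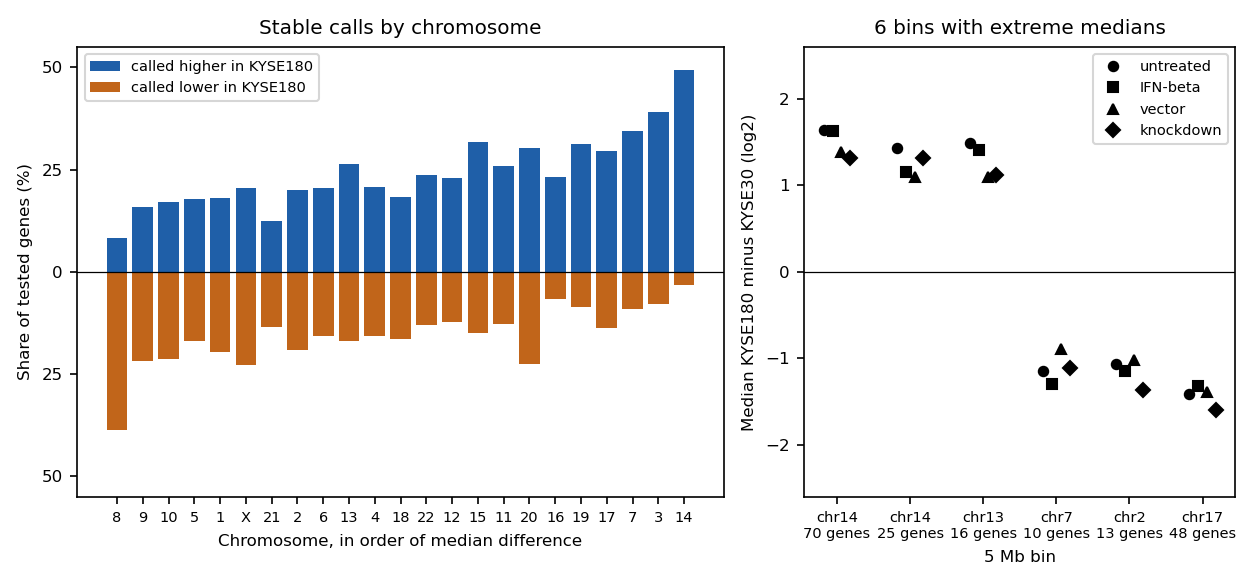
Left, share of tested genes called higher (up) or lower (down) in KYSE180 on each chromosome, in order of median difference. Right, median difference in each of the 4 pairs (symbols) for the 3 windows of 5 Mb with the highest and the 3 with the lowest medians. Chromosomes 14 and 8 stand at the ends. The 4 symbols of each window lie on 1 side of 0, which their choice by the mean over the same pairs makes likely.

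On 9p21, a region often deleted in this cancer, KYSE180 had little or no RNA of the cyclin-dependent kinase inhibitors. CDKN2A was at 10.4, 12.4, 38 and 32.2 FPKM in KYSE30 against 0.07, 0, 0.511 and 0.225 in KYSE180 (−4.15 ± 0.27, adjusted p = 4.82e-05). CDKN2B was at 14.7, 10.3, 13.2 and 5.16 FPKM in KYSE30 and listed at 0 in all 4 KYSE180 libraries (−3.48 ± 0.25, adjusted p = 7.78e-05). MTAP, their neighbour, was at 21.3, 19.8, 6.39 and 10.3 FPKM in KYSE180 and at 17.3, 16.6, 7.20 and 9.55 in KYSE30 (0.12 ± 0.15, adjusted p = 0.566). Within the interferon experiment the MTAP values of KYSE180 lay above those of KYSE30, and within the knockdown experiment the lines overlapped.

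The experiments gave the same direction for nearly all large differences. With the interferon pairs alone 5755 genes were called (53.3%), and with the knockdown pairs alone 2338 (21.7%). Of 768 genes called in the interferon pairs at 2 log2 units or more, 753 (98.1%) had the same sign in the knockdown pairs. Of 640 such genes from the knockdown pairs, 624 (97.5%) had the same sign in the interferon pairs, and over all tested genes the share was 74.6%. The line difference depended on the experiment in 149 genes (1.38%) at an adjusted p of at most 0.05 in limma. At an unadjusted p under 0.05 for the same term there were 2501 of 10788 genes. The other genes are therefore not shown to have equal differences in the experiments. Taken with its sign, KYSE180 minus KYSE30 was lower in the knockdown experiment in 100 of the 149 and higher in 49. This split is by sign and does not say in how many genes the difference grew or shrank. Among named genes, the 149 included PEG10, MT1E, TRIM29, KRT5, KRT6A, KLK10, EPGN, IFIT2, ISG15 and AQP3. Across genes, which are not independent replicates, the pair differences correlated at 0.922 within the interferon experiment, 0.844 within the knockdown experiment and 0.738 to 0.783 between them. Pairs within an experiment share a normalization and may share culture and library batches, which cannot be told apart.

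**Figure D5:**
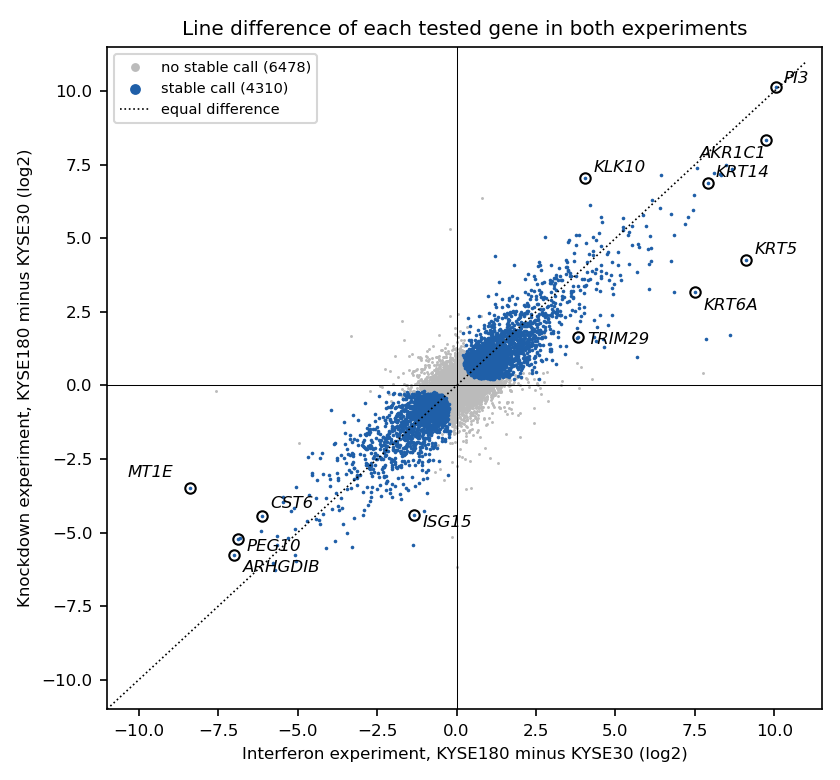
Mean difference between the lines (KYSE180 minus KYSE30, log2) of each of 10788 tested genes in the interferon experiment (x axis) and in the knockdown experiment (y axis), with stable calls in blue. PI3 lies on the line of equal differences, KRT5, KRT6A and MT1E lie nearer to 0 in the knockdown experiment, and KLK10 and ISG15 lie farther from it.

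KYSE450 was set beside the lines within the interferon experiment. Of the 269 genes lower in KYSE180 by 2 log2 units or more, untreated KYSE450 was nearer to KYSE180 in 219 (81.4%). Of the 375 higher ones it was nearer to KYSE180 in 154 (41.1%) and nearer to KYSE30 in 221. Nearer is not likeness, since KYSE450 lay outside the range of both lines in 142 of the 269 and 103 of the 375 genes. It was close to KYSE180 in KRT5 (3355 and 2382 FPKM), KRT6A (2447 and 2028) and MSN (128 and 111), and close to KYSE30 in PI3 (2.2 and 2.54), UCHL1 (0.25 and 0.38) and CYBA (0.09 and 0.35). Of the 71 KYSE180-restricted genes, 20 were at 5 FPKM or more in both KYSE450 libraries and 31 under 0.5 in both. Of the 32 KYSE30-restricted genes, 3 were at 5 FPKM or more in both and 19 under 0.5 in both. KYSE450 has no libraries in the knockdown experiment, so this comparison rests on 1 experiment.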

How the data were processed

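RNA-seq libraries of KYSE180 and KYSE30 in 4 conditions each were compared. The authors deposited 1 table of FPKM per library, per the file headers, without read counts. TopHat, HTSeq and hg38 are listed in the submitters' processing notes without versions, and the annotation, strand setting and read depth are stated nowhere that was used. The long non-coding part of the interferon tables was left out. Rows under 1 gene name were summed, and 17372 names occur in the tables of both experiments. Genes at 1 FPKM or more in at least 4 of the 8 libraries were tested (10788). Values were taken as log2(FPKM + 1) and fitted with limma 3.58.1 (trend and robust) in R 4.3.3, with the condition as a block, with the Benjamini-Hochberg adjustment over all genes tested at 0.05. Libraries pair by the condition in their labels, and whether paired libraries share a culture day is not stated. With FPKM alone, no count test and no interval from counts was possible. On simulated data for this comparison over 10788 genes, 29% of changes of 1 log2 unit and 76% of changes of 2 were recovered, with 4.55% of calls false. The simulation drew noise independently for each library and changed 100 genes at each size. In the data 40.0% of genes were called, and pairs correlated more within an experiment than between experiments. The simulated shares therefore need not hold for these libraries.

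Positions come from GENCODE 29 (GRCh38), and promoters from RefSeq (GRCh38.p14), matched by name for 13958 of 17372 genes. Where a gene had several promoter entries, the first was used.

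The lines, the 36 gene lists and the tests were chosen with earlier results of these data known. Genes named are the 12 with the largest difference in each direction among called genes at a mean of 5 FPKM or more, up to 4 called members of each list, defining markers, and up to 8 line-restricted genes a line. A few of these are not reported here. Other genes named were chosen after their values were seen. Alternatives were median-of-ratios scaling, pseudocounts of 0.1 and 5, other filters, no block, limma without trend and robust options, each pair left out, each experiment alone and pairs averaged within an experiment, the last added after seeing the data. Scripts in Python with pandas, scipy and matplotlib made the tables and figures.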

Additional observations from a re-analysis of the deposited data

Results flagged for a closer look

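Dixon's test on the 4 pair differences set 1 pair apart in 4 of 151 named and called genes, where chance gives about 1 in 20. KRT4 differed by 6.97 in the untreated pair and by 4.98 to 5.21 in the others. MSN differed by 6.78 in the untreated pair and by 6.02 to 6.04 in the others. KRT19 differed by −0.19 in the vector pair and by −1.31 to −1.13 in the others. CLDN3 differed by −3.22 in the vector pair and by −1.25 to −1.06 in the others.

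The line difference changed between the experiments, by limma's test of that change, in 10 named genes. The change, knockdown minus interferon experiment in log2 units, was −4.85 for KRT5, −4.31 for KRT6A, −2.21 for TRIM29 and −3.33 for AQP3, which were higher in KYSE180 by less in the knockdown experiment. It was 3.01 for KLK10, higher in KYSE180 by more. It was 4.91 for MT1E, 1.66 for PEG10 and 1.82 for EPGN, which were lower in KYSE180 by less in the knockdown experiment. It was −4.02 for IFIT2 and −3.07 for ISG15, which were lower by more.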

How the results depend on the processing

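The count of 4310 stable calls ran from 3086 to 4074 with 1 pair left out, the higher ones from 1878 to 2493 and the lower ones from 1201 to 1581. It was 2338 with the knockdown experiment alone (1309 higher, 1029 lower) and stayed within 1.5 times under the other alternatives. Without the condition as a replicate block it was 4686. Averaged pairs gave 3131, in a limma fit on 2 values a gene that leans on the spread of other genes. At 10 FPKM against 0.5 the restricted genes were 42 in KYSE180 and 15 in KYSE30, and at 5 against 0.1 they were 26 and 16. The window at chromosome 14 from 90 Mb had a median of 1.01 with 10 Mb windows, that at chromosome 2 from 195 Mb −1.06 with 10 Mb windows and −1.38 with scaling, and that at chromosome 17 from 15 Mb −1.53 with scaling, where scaling shifts all genes down and larger windows hold more genes. Of 151 named and called genes, 124 kept their call under every alternative that tested them and none reversed. Depth is unknown, so the precision of a single library cannot be given, and the spread over 4 conditions of 1 line each is no measure of the spread between cultures.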
